A study of Mus musculus with 9 samples.

Results

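Zbtb20, which encodes a zinc finger transcription factor, was followed with all of the probe sets that the array annotation pairs with this gene and no other. Zbtb20 is 1 of 18194 genes with such probe sets, and its own are 9 of the 45101 on the array, and each is given separately over the 9 arrays. The gene was singled out for its course against day 0, so that every value against day 0 below is a description of Zbtb20 and carries no test. Affymetrix mouse expression chips were used, on which a probe set is a group of short probes that together measure 1 stretch of a transcript, mostly near its 3' end.

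XX ovaries of E13.0 embryos (E counts days of embryonic development) were taken without the mesonephros, the transient kidney beside the gonad, and were placed beneath the kidney capsule of adult male (XY) nude mice of the BALB/c nu/nu strain, which lack a thymus. Ungrafted ovaries of that stage stand for day 0, and grafts were taken back 4, 7, 10, 15 or 20 days later. Days 0, 10 and 20 had 2 arrays each, whereas a single array stands for each of days 4, 7 and 15, and every graft array was made from a pool of about 10 grafts. Mothers of all the embryos, those of day 0 included, had been given busulfan, a drug that removes the germ cells, so that every sample was depleted of germ cells. The sample labels give the strain as ICR, whereas the methods of the study name both C57BL/6 and ICR for the mothers. No sham-operated or female host was on these arrays, so that time, growth and grafting cannot be told apart from the male host. The duplicates are labelled as biological replicates, but the sources used here do not say which litters or hosts went into a pool, and each p-value below therefore measures only the spread between pooled samples.

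ZBTB20 belongs to the BTB zinc finger proteins, which bind DNA through zinc fingers at one end and, through the BTB domain at the other, pair with each other and bring in corepressors. It acts mostly as a repressor of transcription, and in mice it is known for silencing Afp, the alpha-fetoprotein gene, in the liver after birth, for shaping neurons of the hippocampus and for keeping plasma cells alive. In the RefSeq annotation of assembly GRCm38.p6, the gene lies on chromosome 16 and has 53 transcripts, 3 of them curated and 50 predicted, against a median of 2 for the 21900 protein-coding genes. Probe sets of such a gene can read different ends or forms of its RNA. The position of each probe set within the gene was not used here, since the annotation gives none. Of the 9 probe sets, 7 were listed with an accession of a source transcript and 6 of these accessions were distinct. 1437065_at and 1437066_at were made from the same source transcript.

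A window at 1 start of Zbtb20 is shown as its promoter, and a part of androgen in the rise was not tested. RefSeq lists 53 transcripts of the gene, so that other starts may exist. Which start served each probe set was not measured. The table used here gives 1 start for the gene. The sequence below runs from 250 bases before to 50 bases after that start, at chr16:43247034-43247333 on the plus strand of GRCm38.p6. The capitals mark AGAACA and its reverse complement TGTTCT, the half-site of the androgen and glucocorticoid receptors, and this motif was picked after the letters had been seen.
Zbtb20 promoter: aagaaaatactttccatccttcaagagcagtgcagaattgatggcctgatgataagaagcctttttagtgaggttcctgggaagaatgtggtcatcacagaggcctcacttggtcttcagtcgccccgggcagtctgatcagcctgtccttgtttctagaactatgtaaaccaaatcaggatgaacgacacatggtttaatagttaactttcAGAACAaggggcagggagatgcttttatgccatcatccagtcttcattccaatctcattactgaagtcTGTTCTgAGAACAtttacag
Both strands were searched and the motifs do not overlap. AGAACA or TGTTCT stood 3 times in this window, at positions -38, 31 and 38 from the start, and 1 base separated the last pair. At least 1 such half-site was found in 19.0% of the 32851 promoters of the same length, and at least 3 were found in 0.31%. Since the motif was picked from these letters, the shares are no test of this window. The letters TATAAA (in 13.6% of promoters), TGACTCA (in 5.2%) and CACGTG (in 7.15%) were not in this window. The GC content was 43.3%, under the median of 52.7% over all promoters. A match is a run of letters only, and no binding was measured in these samples.

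All values below are the deposited intensities on the log2 scale, so that a difference of 1 is a 2-fold change. The 9 means over all arrays lay between 7.13 and 9.92, at or above the 56.9th percentile of the probe sets, whose median mean was 6.58, and the 7 graft arrays weigh most in them. On day 0 alone, the means lay between 5.45 and 7.42, and 4 of the 9 were under 6.58. A level is compared between probe sets only as a brightness on the array, since probes differ in how well they bind. All array medians were between 6.49 and 6.63.

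The brightest probe set was 1437598_at. Its intensity was 7.41 and 7.25 on day 0, 9.11 on day 4, 10.3 on day 7, 10.66 and 10.61 on day 10, 10.99 on day 15 and 11.67 and 11.25 on day 20. Every step was upward, the day 0 arrays were within 0.17 of each other, and the groups of days with duplicates did not overlap. The next, 1438443_at, was at 7.83 and 6.31 on day 0, 9.26 on day 4, 10.38 on day 7, 10.47 and 10.72 on day 10, 10.6 on day 15 and 11.72 and 10.91 on day 20. It reached nearly the same levels in the grafts, but its day 0 arrays were 1.52 apart.

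A group of 4 probe sets lay close together below these. 1439128_at read 7.61 and 7.22 on day 0, 8.78 on day 4, 9.41 on day 7, 9.78 and 10.02 on day 10, 10.0 on day 15 and 10.79 and 10.56 on day 20. 1422064_a_at, whose suffix marks probes that recognise several transcripts of 1 gene, read 7.23 and 6.67 on day 0, 8.92 on day 4, 9.61 on day 7, 9.8 and 9.9 on day 10, 9.94 on day 15 and 10.69 and 10.25 on day 20. In both, the day 20 arrays were above the day 10 arrays, and day 15 was level with day 10. 1439278_at read 6.96 and 7.1 on day 0, 8.72 on day 4, 9.33 on day 7, 9.75 and 9.63 on day 10, 9.87 on day 15 and 10.46 and 10.23 on day 20. Its duplicates were the closest over the 3 days with 2 arrays, at most 0.22 apart. 1451577_at read 7.04 and 6.0 on day 0, 8.82 on day 4, 9.6 on day 7, 9.55 and 9.88 on day 10, 9.52 on day 15 and 10.73 and 9.76 on day 20. In this probe set, day 20 replicate 2 was below day 10 replicate 2, so that days 20 and 10 overlapped.

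The 3 dimmest probe sets had means of 8.18, 8.08 and 7.13. 1437066_at was at 6.85 and 5.59 on day 0, 7.27 on day 4, 8.52 on day 7, 8.77 and 9.25 on day 10, 8.48 on day 15 and 9.99 and 8.93 on day 20. Its day 4 value was only 0.42 above the higher day 0 array, the smallest such margin of the 9. 1437065_at, made from the same source transcript, was at 5.78 and 5.21 on day 0, 7.25 on day 4, 7.73 on day 7, 8.97 and 9.19 on day 10, 9.03 on day 15 and 10.16 and 9.38 on day 20. 1443471_at, the dimmest, was at 6.3 and 4.59 on day 0, 6.91 on day 4, 7.97 on day 7, 7.47 and 7.79 on day 10, 7.28 on day 15 and 8.09 and 7.75 on day 20. Its second day 0 value was the only Zbtb20 value under 4.82, the 25th percentile of all values, below which the size of a change is uncertain. It was also the only probe set with a day 10 mean under its day 7 value, and from day 7 on it stayed between 7.28 and 8.09.

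**Figure D1:**
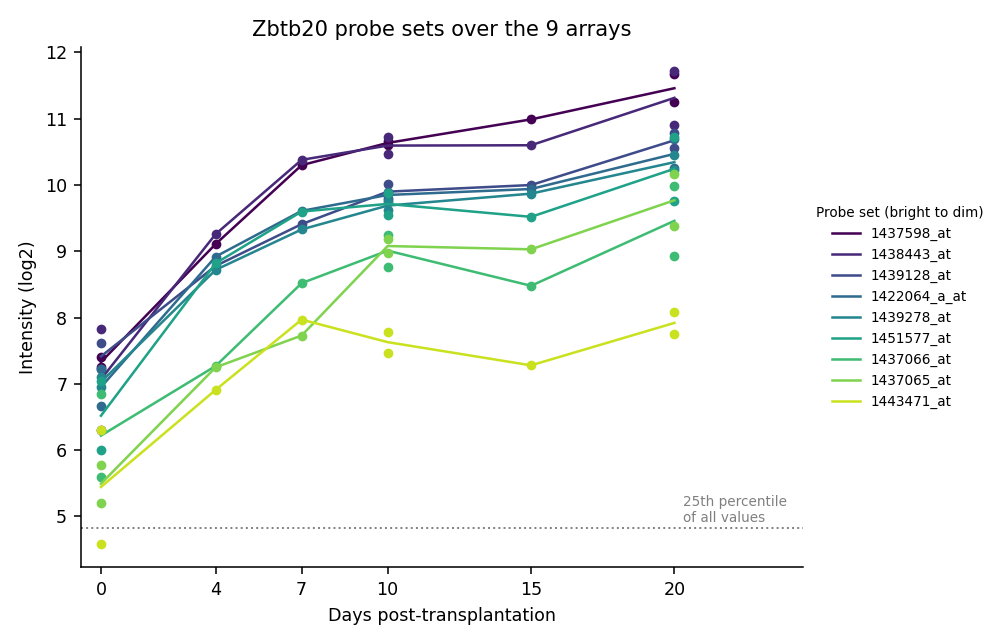
Intensity (log2, vertical axis) of the 9 Zbtb20 probe sets by days post-transplantation (horizontal axis), with a point for each array and a line through the mean of each day. All lines climb by day 4, and 1443471_at, the dimmest, levels off at 7.97 on day 7 while 1437598_at reaches 11.67 on day 20.

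The plot of levels by day shows an early rise in all the probe sets. By day 7 they had between 52.3% (1437065_at) and 102.0% (1443471_at) of their day 20 change. The steps differed between them. 1437065_at rose by 0.48 from day 4 to day 7 and by 1.35 from day 7 to day 10. 1437066_at rose by 1.05 up to day 4 and by 1.25 from day 4 to day 7. Over the 9 probe sets, the median change from day 0 was 1.76 on day 4 (range 1.05 to 2.3), 2.53 on day 7 (2.0 to 3.3), 2.9 on day 10 (2.19 to 3.59), 2.99 on day 15 (1.84 to 3.66) and 3.52 on day 20 (2.48 to 4.27). As folds, these medians were 3.38, 5.77, 7.46, 7.95 and 11.5. The median change of all probe sets was between -0.11 and -0.06 on these days. All 9 probe sets were more than 2-fold higher than day 0 on each of the 5 days. Over the whole array, 4.15% of probe sets were so on day 4, 6.23% on day 7, 6.64% on day 10, 6.49% on day 15 and 8.2% on day 20. In all 9, each of the 7 graft arrays was above both day 0 arrays, as it was in 10.3% of all probe sets. Since the gene was chosen for this course, nothing is read from these counts.

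Most of the day 20 change of Zbtb20 was already present on day 10. By day 4 the change amounted to between 32.4% (1437066_at) and 61.7% (1451577_at) of that on day 20. By day 10 it amounted to between 76.2% (1439128_at) and 88.4% (1443471_at). Between days 10 and 15, 4 of the 9 probe sets went down, the most in 1437066_at (-0.53) and 1443471_at (-0.35), and 1437598_at went up the most (0.35). The single arrays of days 4, 7 and 15 have no replicate, so that these steps have no error of their own.

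**Figure D2:**
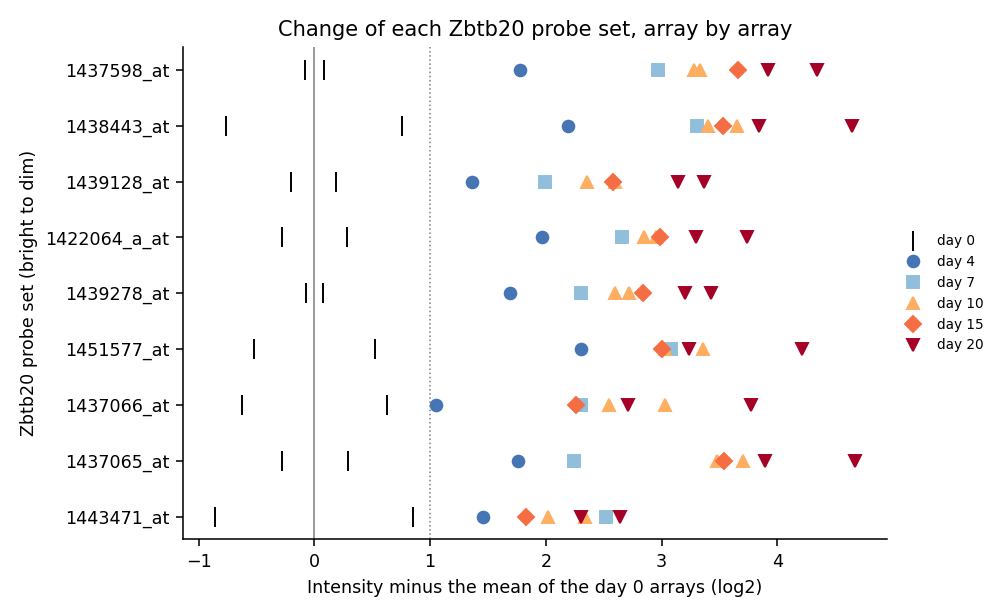
Intensity on each array minus the mean of the day 0 arrays (log2, horizontal axis) for the 9 Zbtb20 probe sets, from bright at the top to dim at the bottom, with a symbol for each day and the dotted line at a 2-fold change. The graft arrays lie right of both day 0 ticks in all 9 rows, with the narrowest gap of 0.42 in 1437066_at.

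Brightness and size of change went together only loosely among the Zbtb20 probe sets. The largest day 20 change belonged to the second dimmest, 1437065_at, which was 19.3-fold higher on day 20 than on day 0 (log2 change 4.27). 1438443_at (18.9-fold) and 1437598_at (17.5-fold), the brightest, followed. The dimmest, 1443471_at, had the smallest, at 5.56-fold (2.48). Between these extremes stood 1451577_at with 13.2-fold, 1422064_a_at with 11.5-fold, 1439278_at with 9.96-fold, 1439128_at with 9.59-fold and 1437066_at with 9.48-fold. Across the 9 probe sets, the mean level and the day 20 change had a Pearson's r of 0.61 and a Spearman's rho of 0.37, and the mean level and the day 10 change had 0.45 and 0.27. The points share their arrays, their gene and the day 20 or day 10 values that enter both measures. The day 0 level, with an r of 0.08 for the day 10 change and of 0.27 for the day 20 change, was related even less.

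The pair of probe sets from a single source transcript differed in the size of their changes. 1437065_at and 1437066_at had nearly equal means (8.08 and 8.18), but their changes were 1.76 and 1.05 on day 4, 3.59 and 2.79 on day 10, 3.53 and 2.26 on day 15 and 4.27 and 3.24 on day 20. On day 7 they were close, with 2.24 and 2.3. The day 0 arrays were 0.57 apart in 1437065_at and 1.26 apart in 1437066_at.

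The day 0 duplicates disagreed on Zbtb20 more than on most of the array, and the disagreement was uneven over its probe sets. Day 0 replicate 1 was above replicate 2 in 8 of the 9, by a median of 0.57, and the gap was over 1 in 4 of them. These were 1443471_at (1.7), 1438443_at (1.52), 1437066_at (1.26) and 1451577_at (1.04), gaps at the 98.8th, 98.4th, 97.3rd and 96.0th percentile of all probe sets by size. In 1437598_at (0.17) and 1439278_at (-0.15), gaps were near the median size of 0.18. The 4 wide gaps did not belong to the dim probe sets only, since 1438443_at is the second brightest. As measured by the control probe sets at the 3' and 5' ends of Actb, Gapdh, Tfrc and Pcx, the median 3' minus 5' difference was 1.26 and 1.32 on the day 0 arrays, so that the day 0 arrays were close by this measure of RNA quality. Across the grafts, this median was between 0.74 and 1.04, so that both day 0 arrays were above every graft array. The part of this difference in the changes from day 0 was not tested.

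The size of the rise depended on which day 0 array was taken, most of all in the 4 probe sets with wide gaps. Against day 0 replicate 1 alone, the day 10 change was 1.34 for 1443471_at, 2.76 for 1438443_at, 2.16 for 1437066_at and 2.68 for 1451577_at. Against day 0 replicate 2 alone, it was 3.04, 4.28, 3.42 and 3.72. For 1437598_at it was 3.22 and 3.39, and for 1439278_at 2.74 and 2.59. With either day 0 array, all changes on day 10 were upward and more than 2-fold.

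**Figure D3:**
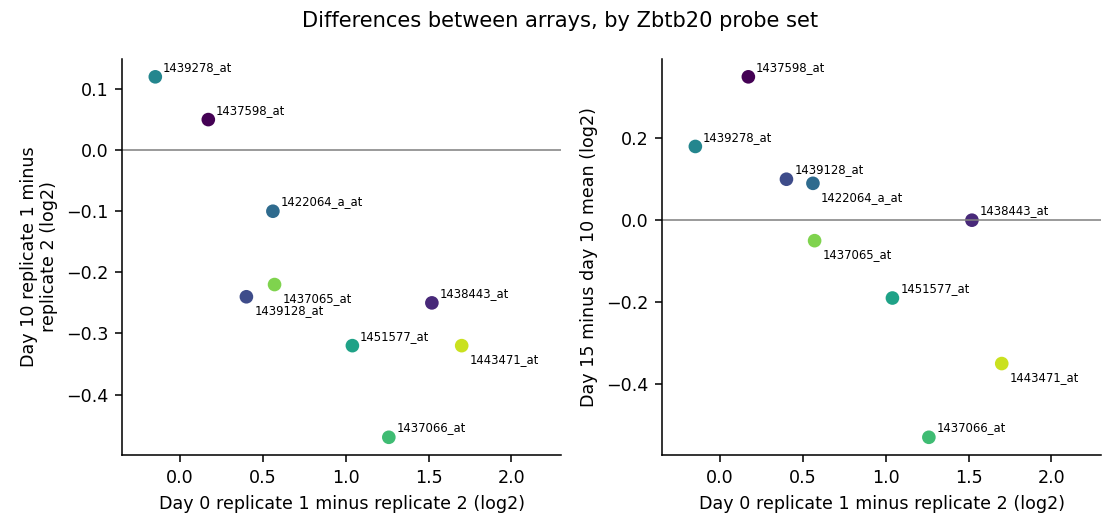
Each point is a Zbtb20 probe set, placed by day 0 replicate 1 minus replicate 2 (log2, horizontal axes) and, on the vertical axes, by day 10 replicate 1 minus replicate 2 (left panel) and day 15 minus the mean of day 10 (right panel). Of the 4 probe sets with day 0 gaps over 1, 1437066_at, 1443471_at and 1451577_at lie lowest in both panels, whereas 1438443_at is at 0.0 in the right one.

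Of the 4 probe sets that differed most between the day 0 arrays, 3 also differed most between the day 10 arrays. On day 10, replicate 2 was above replicate 1 in 7 of the 9, and the plot of differences between arrays shows that the gap was largest in 1437066_at (-0.47), 1451577_at (-0.32) and 1443471_at (-0.32). Across the 9 probe sets, the day 0 gap had a Pearson's r of -0.81 (Spearman's rho -0.82) with the day 10 gap and of -0.76 (-0.85) with the step between days 10 and 15. With the day 20 gap, r was 0.51 (rho 0.57). These points share a gene and in part a source transcript, and the values describe 9 probe sets on the same arrays. Day 20 replicate 1 was above replicate 2 in all 9, which is so for 46.1% of all probe sets, with a median gap of 0.45. 1437066_at (1.06), 1451577_at (0.97), 1438443_at (0.81) and 1437065_at (0.78) had the widest gaps there. Over the whole array, the SD of the gaps was 0.45 on day 0, 0.34 on day 10 and 0.7 on day 20.

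The Zbtb20 probe sets followed each other closely. Pearson's r over the 9 arrays was between 0.87 and 1.0 for the 36 pairs, with a median of 0.96. Over the 7 graft arrays alone, where the step from day 0 plays no part, the median was 0.93 and the lowest 0.57. The mean r of each probe set with the others over the grafts was between 0.88 and 0.94 for 8 of them and 0.73 for 1443471_at.

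To see what is usual on this array, Zbtb20 was set beside the other 51 of the 52 genes with at least 8 probe sets of their own. Its mean pairwise r of 0.96 was the highest, ahead of 0.95 for Slc25a5, which encodes a mitochondrial ADP/ATP carrier, and 0.87 for Cp, the ferroxidase ceruloplasmin. The median of the other genes was 0.28. Over the grafts alone, Zbtb20 and Cp shared the second rank with 0.89, after Slc25a5 with 0.97. Its median day 10 change of 2.9 was second to that of H2-D1, a class I histocompatibility gene, with 3.2. By the SD of the change over the probe sets of a gene, Zbtb20 was not among the tightest, with 0.48 on day 10 (rank 29 from the smallest, median of the others 0.45) and 0.59 on day 20 (rank 39, median 0.38). Its means spanned only 2.79, the third smallest range, against a median of 5.27 for the other genes. All probe sets had a change of the same sign on day 10 in 7 of the 52 genes. These ranks describe these arrays and carry no test.

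**Figure D4:**
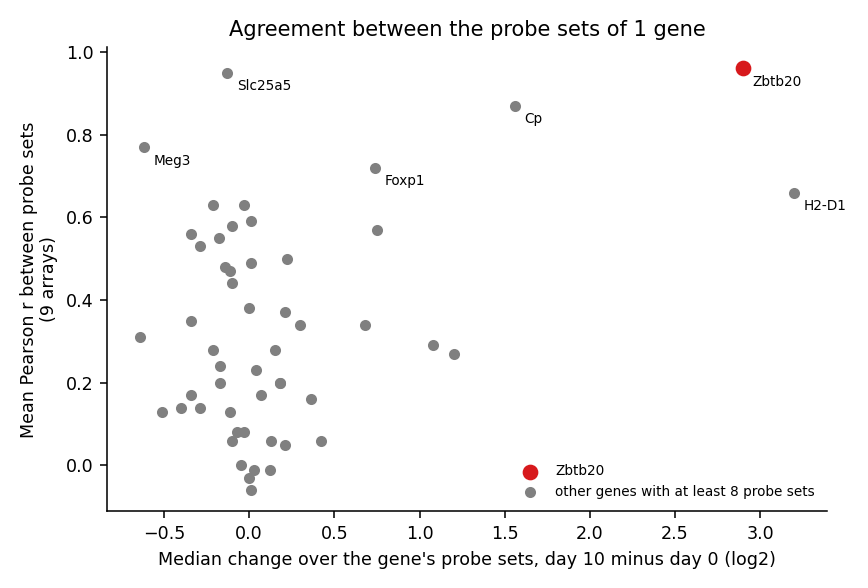
Mean Pearson's r over the 9 arrays between the probe sets of a gene (vertical axis) against the median day 10 minus day 0 change over these probe sets (log2, horizontal axis), with a point for each of the 52 genes with at least 8 probe sets. Zbtb20 lies at 0.96 and 2.9, whereas the median of the other genes is 0.28 for r.

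Days 20 and 10 were compared directly with limma, in a fit of all 9 arrays with a mean for each day and Benjamini-Hochberg adjustment over all probe sets, where a probe set is called if it changed more than 2-fold with its adjusted p below 0.05. No Zbtb20 probe set was called (0 of 9), and 3 of the 9 had an unadjusted p under 0.05. The share of all probe sets under that p was not taken, and the 9 read 1 gene on the same arrays. Nothing is therefore read from this count. Over the array, 0.00222% of probe sets were called higher and 0.0% lower. Day 20 averaged 11.46 and day 10 averaged 10.64 in 1437598_at, a change of 0.82 (SE 0.2, 2 arrays each, adjusted p = 0.735). In 1439128_at, the means were 10.68 on day 20 and 9.9 on day 10 (0.78, SE 0.21, adjusted p = 0.807), and in 1439278_at 10.35 on day 20 and 9.69 on day 10 (0.65, SE 0.17, adjusted p = 0.764). The other 6 changes were between 0.29 and 0.72, with SEs between 0.26 and 0.54 and adjusted p-values of at least 0.977. Both day 20 arrays were above both day 10 arrays in 6 of the 9 probe sets, and in 13.2% of all probe sets.

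Day 20 replicate 1 stood apart from the other arrays by kidney genes. The 12 genes of the kidney proximal tubule measured here, from Slc34a1 to Slc13a3, had a median change from day 0 of 5.78 on this array and of -0.08 on day 20 replicate 2, and all 12 were higher on replicate 1. Their summed level, on the log2 scale, was 15.66 on day 20 replicate 1, 9.86 on day 20 replicate 2 and 9.64 and 9.93 on day 0, and 2 of the 12 had day 0 means under the 25th percentile. The 3' minus 5' difference of Pcx was 3.66 on replicate 1 and 1.44 on replicate 2. On day 20 replicate 2 alone, Zbtb20 was still higher than on day 0, by between 2.31 (1443471_at) and 3.92 (1437598_at), or 4.95 to 15.1-fold. On replicate 1 alone it was higher by between 2.64 and 4.66. Without replicate 1, the changes between days 20 and 10 were 0.61 in 1437598_at, 0.66 in 1439128_at and 0.54 in 1439278_at, whereas 1451577_at had 0.04 and 1437066_at -0.08. The kidney genes also differed between the day 10 arrays, though far less. For replicate 1 of day 10 their median change from day 0 came to -0.1, and for replicate 2 to 0.39. The summed levels of that day spanned 9.85 to 10.46. The part of this difference in the day 10 gaps of Zbtb20 was not tested.

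Markers of other cells moved in the grafts alongside Zbtb20, and since the samples are bulk tissue, a rise can mean more cells that express Zbtb20 or more RNA per cell, which cannot be told apart. Of 10 stroma and matrix genes, such as Col1a1 and Dcn, 8 were called higher on day 10 and 8 on day 20, where 3.87% and 6.31% of the 18194 genes measured were. Their summed level (log2), which the brightest genes dominate, was 14.66 to 14.86 on day 0 and between 16.62 and 16.83 in all grafts. Single genes differed within the grafts. Pdgfra was at 12.15 on day 4 and 12.87 and 13.34 on day 20, and Dcn at 13.88 and then 14.45 and 14.4. Col1a1 was at 12.08 on day 4 and 11.78 and 11.46 on day 20. Of 8 smooth muscle genes, 4 were called higher on day 10 and 5 on day 20, and their summed level was 11.39 to 11.64 on day 0, 12.79 on day 4, 13.26 on day 7, 13.98 to 14.48 on day 10, 14.17 on day 15 and 13.97 to 14.14 on day 20. In each of these lists, 1 gene had a day 0 mean under the 25th percentile.

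Of 12 macrophage genes, 9 were called higher on day 10 and 10 on day 20, and 3 were under the 25th percentile on day 0. Their summed level went down between days 4 and 15, with 10.76 to 11.42 on day 0, 15.27 on day 4, 14.81 on day 7, 13.98 to 14.15 on day 10, 13.47 on day 15 and 14.61 to 15.17 on day 20. Plasma cells are a known site of Zbtb20 expression, and of 8 B and plasma cell genes 1 was called higher on day 10 and 4 on day 20. Their summed level was 10.55 to 10.7 on day 0, 10.82 on day 4 and 11.69 to 11.78 on day 20, and 3 of them were under the 25th percentile on day 0. Most of the day 0 sum was Sdc1, which was between 10.03 and 10.72 on all arrays. Jchain, under the 25th percentile on day 0 with 3.18 and 3.68, read 6.88 on day 4 and 8.25 on day 7. It read 7.41 and 6.6 on day 10, 8.26 on day 15 and 10.88 and 10.48 on day 20. Cd79a went the other way, with a change of -0.25 on day 20 and no call. Of 9 endothelial genes, 1 was called higher on each of the days. The markers of the fetal ovarian soma, such as Wnt4, Fst and Lhx9, all had day 0 means above the 25th percentile, and of the 10 genes 4 were called lower on day 10 and 8 on day 20, where 2.01% and 4.51% of genes were. Their summed level was 13.3 to 14.3 on day 20, against 15.35 to 15.46 on day 0. Foxl2, the granulosa cell factor on this list, went the other way, with changes of 1.29 on day 10 and 0.83 on day 20 and no call. The part of these cells in the Zbtb20 values was not tested.

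Since Zbtb20 was chosen for its change against day 0, nothing is read from its place in its family. None of the other BTB zinc finger genes changed as much as the median of the Zbtb20 probe sets on day 10 or day 20. Of 47 listed, 46 were measured, each by its brightest probe set, and their day 10 changes ranged from -1.72 (Zbtb7c) to 1.98 (Bcl6), and their day 20 changes from -1.96 to 2.44. The median was -0.01 on day 10 and -0.11 on day 20, near the medians over all genes of -0.13 and -0.14, and 37 of the 46 were within 1 log2 unit of day 0 on both days. On day 10, 1 gene was called higher and 1 lower, and on day 20, 2 were called higher and 1 lower. With the 3.87% and 6.31% of genes called higher and the 2.01% and 4.51% called lower, these counts are near the background.

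**Figure D5:**
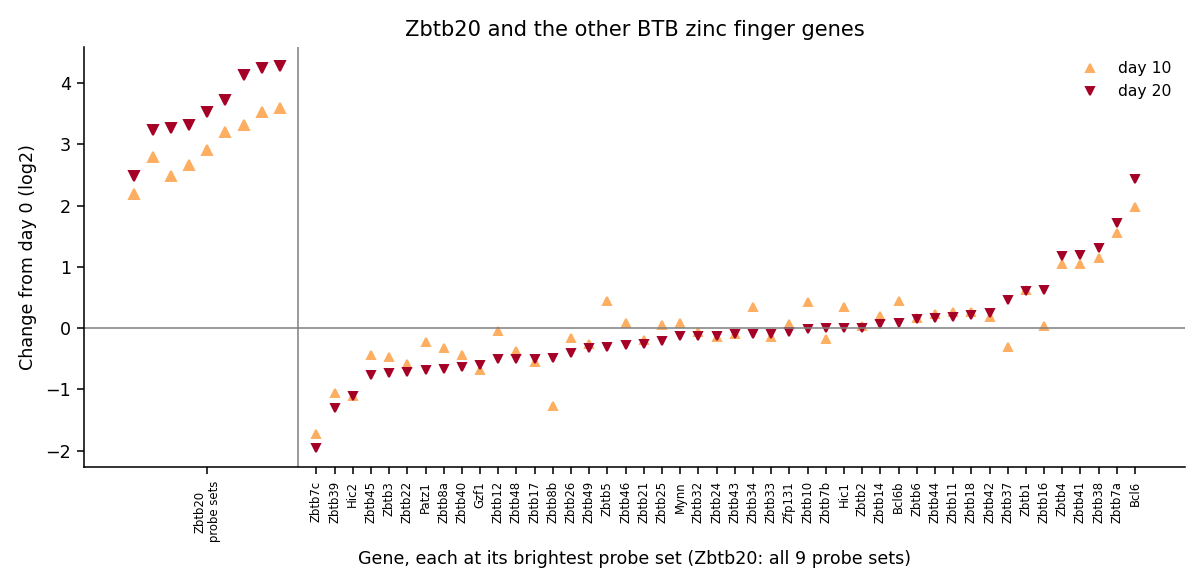
Change from day 0 (log2, vertical axis) on days 10 and 20 for the 9 Zbtb20 probe sets (left of the vertical line, ordered by day 20 change) and for the other 46 BTB zinc finger genes at their brightest probe set (right). The median of the Zbtb20 probe sets, 2.9 on day 10 and 3.52 on day 20, is above every other gene, the highest being Bcl6 with 1.98 and 2.44. Zbtb20 was chosen for this change.

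Bcl6, a repressor that directs germinal centre B cells, was the family member nearest to Zbtb20 in the plot of the family. Its intensity was 6.36 and 6.53 on day 0, 8.28 on day 4, 8.1 on day 7, 8.45 and 8.4 on day 10, 8.28 on day 15 and 9.43 and 8.34 on day 20. The limma change was 1.98 on day 10 (SE 0.36, adjusted p = 0.0425) and 2.44 on day 20 (adjusted p = 0.0168). Unlike Zbtb20, it was flat between days 4 and 15. Both calls ended when a day 0 or day 10 array was left out, with changes of 1.89 to 2.07 on day 10 and 2.36 to 2.53 on day 20. A fit without an array also has less replicate spread to draw on, which can end a call by itself. Zbtb38, which binds methylated DNA, rose by 1.3 on day 20 (SE 0.29, adjusted p = 0.0496). Zbtb39 fell by 1.3 on day 20 (SE 0.28, adjusted p = 0.0457), and Zbtb8b fell by 1.27 on day 10 (SE 0.24, adjusted p = 0.0472). These 3 calls were close to the threshold and ended without single arrays. Day 20 replicate 1 was among these arrays for Zbtb38 and Zbtb39, and a day 0 or day 10 array for Zbtb8b.

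The closest relative of ZBTB20, Zbtb45, was not called, with 7.61 and 8.05 on day 0, 7.4 and 7.4 on day 10 and 6.56 and 7.59 on day 20. Its change was -0.43 on day 10 (adjusted p = 0.553) and -0.76 on day 20 (SE 0.36, adjusted p = 0.249). The day 20 change was -0.25 without day 20 replicate 1 and -1.27 without replicate 2, which leaves only the array with the kidney genes. Zbtb16, which encodes PLZF, the factor that maintains spermatogonial stem cells, had a change of 0.03 on day 10 (adjusted p = 0.973) and 0.63 on day 20 (adjusted p = 0.321), also with limma. The Zbtb16 values were 7.27 and 6.24 on the day 20 arrays. The day 20 change of Zbtb16 was 0.11 without replicate 1 and, on the array with the kidney genes alone, 1.15.

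Among 8 genes tied to ZBTB20 in other mouse tissues, all measured, 0 were called higher and 1 lower on day 10, and 1 was called higher and 1 lower on day 20. The shares over all genes were 3.87% higher with 2.01% lower for day 10, and 6.31% higher with 4.51% lower for day 20. With an unadjusted p under 0.05 by limma, 2 of the 8 were higher and 2 lower on day 10, and 3 higher and 2 lower on day 20. The share of all genes under that p was not taken, so that nothing is read from these counts. The first group is made of genes that ZBTB20 is known to repress. Afp, repressed in liver, was at 7.78 and 7.13 on day 0, 4.75 on day 4, 4.8 on day 7, 4.92 and 4.79 on day 10, 4.88 on day 15 and 4.88 and 4.78 on day 20. It fell by 2.6 on day 10 (SE 0.24, adjusted p = 0.00764) and by 2.63 on day 20 (adjusted p = 0.00502). The graft values lie around the 25th percentile, so that the size and the course of the fall are uncertain. The day 10 call ended without either day 10 array. Of 7 hepatocyte genes, 0 were called higher and 2 lower on each of the days, against the same shares over all genes, with a median change of -0.33 on day 10. Those called lower were Alb and Apoa2, which like Afp were lower by day 4. Alb was at 7.44 and 6.68 on day 0, 5.5 on day 4 and 5.45 and 5.24 on day 10. Apoa2 was at 6.43 and 6.16 on day 0, 4.79 on day 4 and 4.51 and 4.62 on day 10. Apoa1 went the other way, with 1.41 on day 10 and no call.

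Sox9, repressed by ZBTB20 in cartilage, had limma changes of 0.25 on day 10 (adjusted p = 0.673) and 0.15 on day 20 (adjusted p = 0.768). These are from the brightest of its 3 probe sets, where the single arrays gave 0.89 on day 4 and 0.96 on day 15. Its other probe sets are not given here. The study lists Sox9 among the Sertoli cell genes that rose in its grafts, and reports a significant rise at days 15 to 20. Nfkbia, the NF-kappa-B inhibitor repressed in macrophages, ran with Zbtb20 instead, at 11.64 and 11.51 on day 0, 12.26 and 12.14 on day 10 and 12.38 and 12.36 on day 20 in 1420088_at. Its change was 0.62 on day 10 (adjusted p = 0.0886) and 0.79 on day 20 (SE 0.15, adjusted p = 0.0335), which is under 2-fold and no call. Fbp1, a gluconeogenic enzyme repressed in pancreatic beta cells, was at 5.43 and 5.49 on day 0, 7.57 and 8.33 on day 10, 13.41 on day 20 replicate 1, the array with the kidney genes, and 8.3 on day 20 replicate 2. Its limma change was 2.49 on day 10 (SE 1.54, adjusted p = 0.423) and 5.39 on day 20 (adjusted p = 0.0899). The day 20 change became 2.84 without day 20 replicate 1 and 7.95 without replicate 2. The SE of the day 10 change includes the spread between the day 20 arrays. In a fit of the arrays of days 0 and 10 alone, the day 10 change had an adjusted p of 0.0191.

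In the second group are genes that need ZBTB20 or are linked to it in another way. Egfr, the epidermal growth factor receptor, whose liver level depends on ZBTB20, was at 7.99 and 8.97 on day 0, 9.97 on day 4, 10.14 on day 7, 10.58 and 10.62 on day 10, 10.75 on day 15 and 10.25 and 11.12 on day 20. Its change was 2.12 on day 10 (SE 0.41, adjusted p = 0.0525) and 2.21 on day 20 (adjusted p = 0.0321). The day 20 call ended without a day 0 or day 10 array or day 20 replicate 2. Mlxipl, a switch of lipogenesis in liver, was not called, with -0.7 on day 10 (adjusted p = 0.475) and 0.62 on day 20 (adjusted p = 0.463). Its day 20 value rested on replicate 1, the array with the kidney genes (9.3, against 7.74 on replicate 2). The day 20 change was -0.16 without that array and 1.4 without replicate 2. Prl, the pituitary hormone prolactin, averaged 4.62 and had 0.12 on day 10 (adjusted p = 0.763) and -0.22 on day 20 (adjusted p = 0.48). Prokr2, a receptor of the circadian clock centre of the brain, had -0.46 on day 10 (adjusted p = 0.192) and -0.6 on day 20 (adjusted p = 0.0808).

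Genes most like Zbtb20 in pattern were picked by Pearson's r over the 9 arrays with the mean of the centred Zbtb20 probe sets, among 19167 probe sets with 1 gene symbol and a mean above the median. Of these, 2.93% had an r of at least 0.9 and 0.871% of at least 0.95. The closest was another probe set of Nfkbia, 1438157_s_at (r 0.989), with changes of 0.72 on day 10 and 0.85 on day 20, a likeness of shape and not of size. Slc25a30, a mitochondrial carrier gene, had an r of 0.989 with 0.7 on day 10 and 0.82 on day 20. Fbxo32, a ubiquitin ligase subunit of wasting muscle, came nearest to Zbtb20 also in size (r 0.988, 2.72 on day 10 and 3.34 on day 20), as did Ecrg4, which encodes a secreted peptide precursor (r 0.988, 2.63 and 3.44).

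The others were Degs1, a ceramide synthesis enzyme (r 0.987), and Igf1r, Sash1, Bmp6 and Star (r 0.986 each), with Slco3a1 after them (r 0.985). Star, which brings cholesterol into mitochondria for steroid synthesis, changed by 2.08 on day 10 and 2.72 on day 20, and Slco3a1, an organic anion transporter, by 2.1 and 2.57. For Igf1r, the insulin-like growth factor receptor, another probe set of the same gene had an r of only -0.577 with Zbtb20, for Sash1, a signalling scaffold, of -0.287, and for Slc25a30 of 0.248, whereas all Slco3a1 probe sets had at least 0.968. Bmp6, a bone morphogenetic protein, had a single probe set.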

How the data were processed

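RNA of XX ovaries and grafts was measured on 9 arrays. The authors deposited log2 intensities, which they had made by the robust multiarray algorithm, a procedure of background correction, quantile normalization across arrays and a summary over the probes of each set. Labelling used either of a pair of kits, and the sources used here do not say which kit each array had. No signal call comes with the values, so that the number of arrays limits precision. Zbtb20 and the gene lists were chosen with earlier results of these data known. Of the probe sets, 34958 carried 1 gene symbol, 932 several and 9211 none, and 0 of those with several included Zbtb20. A gene was taken at its brightest probe set.

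Changes were tested with limma 3.58.1 in R 4.3.3 (lmFit, eBayes, a mean per day, 3 residual and 2.69 prior degrees of freedom), adjusted by the Benjamini-Hochberg method over all probe sets, with thresholds of 0.05 and of 2-fold. The lone arrays of days 4, 7 and 15 were taken to vary like the others. The fit was tested on simulated data. Other steps used Python 3.11.15 with numpy 2.4.6, pandas 2.3.3 and, for plots, matplotlib 3.10.9. Genes were named by rule: every Zbtb20 probe set, Zbtb45, Zbtb16 and Bcl6, all 8 genes tied to ZBTB20, up to 4 called members of a list in each direction, the 10 genes most like Zbtb20 and the 3 nearest protein-coding genes on each side. Promoter sequence, transcript numbers and neighbours came from RefSeq (GRCm38.p6). Alternatives were centring on array medians, quantile normalization, a floor at the 25th percentile (4.82), only probe sets above the median, a replicate block, an intensity trend, a fit of the compared days alone, any probe set of a gene, and leaving out single arrays.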

Additional observations from a re-analysis of the deposited data

How the results depend on the processing

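The changes of Zbtb20 from day 0 kept their direction in all settings tried. Leaving out single arrays, the median change was 1.47 to 2.04 on day 4, 2.37 to 2.94 on day 7, 2.68 to 3.39 on day 10, 2.71 to 3.27 on day 15 and 3.24 to 3.88 on day 20, and 7 to 9 probe sets were over 2-fold on day 4 and 8 to 9 on day 15, the fewest without day 0 replicate 2, and 9 on days 7, 10 and 20. Of 126 values of single probe sets under alternatives, 10 moved by more than the replicate spread, among them 1443471_at (1.34 to 3.04 on day 10) and 1438443_at (2.76 to 4.28). The SD over the probe sets was 0.48 to 0.59 on day 10 and 0.54 to 0.73 on day 20 without single arrays, a setting chosen after seeing the data, and 0.5 on day 10 with the floor. For days 20 and 10, 0 probe sets were called in each setting.

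Counts in the lists are small and moved with most settings, and the cause was not tested. BTB zinc finger genes called higher on day 10 were 0 with quantile normalization, 0 with the floor and 3 with the arrays of the 2 days alone, and those called lower were 0 with the floor, 0 with the trend and 4 with those arrays alone. On day 20, those called higher were 0 with the floor, 1 with the trend and 0 with the 2 days alone, and those called lower were 2 with centring, 2 with quantile normalization, 0 with the floor, 3 with probe sets above the median, 0 with the 2 days alone and 2 with any probe set. Without single arrays, the counts were 0 to 3 higher and 0 to 4 lower on day 10, and 0 to 3 higher and 0 to 6 lower on day 20. The highest of these came without either day 20 array on day 10 and without day 20 replicate 2 on day 20, and the 0 counts mostly without a day 0 or day 10 array. Of the genes tied to ZBTB20, 1 was called higher on day 10 with centring, quantile normalization, the trend, probe sets above the median or any probe set, and 2 with the 2 days alone. The 1 called lower became 0 on day 10 with the floor or with probe sets above the median, and 0 on day 20 under that last setting, which leaves Afp out. The 1 called higher on day 20 became 0 with the floor and with the 2 days alone. Without single arrays, 0 to 2 were higher and 0 to 1 lower on day 10, and 0 to 2 higher and 1 lower on day 20, with 2 higher only where a day 20 array was left out.

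The replicate numbers did not pair the arrays, since the gaps between duplicates correlated at -0.16 (days 0 and 10), 0.15 (days 0 and 20) and -0.13 (days 10 and 20) over all probe sets. With a replicate block, 0 BTB zinc finger genes were higher and 0 lower on day 10, 1 was higher and 1 lower on day 20, 1 gene tied to ZBTB20 was higher on day 10, and 0 Zbtb20 probe sets were called between days 20 and 10.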

Other observations

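The genes on either side of Zbtb20 on chromosome 16 did not share its course. Before it in the RefSeq order stood Gap43, a growth-cone protein of neurons, with 5.84 and 6.37 on day 20 and 7.4 and 7.38 on day 0, a change of -1.28 by limma (adjusted p = 0.0317), and with -0.69 on day 10 (adjusted p = 0.184). Lsamp, a neuronal adhesion protein, had 0.11 on day 10 (adjusted p = 0.845) and 0.34 on day 20 (adjusted p = 0.422). After it, Drd3, a dopamine receptor, averaged 3.95 and is under the 25th percentile, and Qtrt2, a subunit of an enzyme that modifies transfer RNA, had -0.21 on day 10 (adjusted p = 0.623) and -0.33 on day 20 (adjusted p = 0.384). Tigit, which overlaps Zbtb20, and Gm52229 had no probe set with a single symbol and were not analysed here.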
